A study of Gallus gallus with 53 samples.

Results

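The comparison covered 11 of the 53 columns of the series, all from wild type DT40 cells, a chicken B cell line. Of these, 5 columns came from cells given 10 μg/ml anti-IgM (the monoclonal antibody M4), 5 from cells given 1 μg/ml, and 1 from unstimulated cells, and the stimulated columns were taken at 15, 30, 45, 60 and 90 min. The columns were chosen by dose and time alone, so that each time gave a pair of doses and the unstimulated column served both. Wild type cells also received 0.1 μg/ml anti-IgM or CD40 ligand (CD40L), and 10 μg/ml anti-IgM was also given to wild type cells pre-treated with the MEK inhibitor U0126 (WT + Inh) and to IKKβSA cells, which carry an inactive IKKβ knock-in. These columns are used below only as separate readouts.

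Anti-IgM crosslinks the B cell receptor (BCR), and the crosslinked receptor activates tyrosine kinases that feed both the IKK-NF-κB and the MEK-ERK pathway. Both pathways switch on early response genes within minutes, and several of those genes encode inhibitors of the same kinases, so that many early transcripts are made in a pulse. A response is called saturated over a range of doses when a higher dose of the antibody no longer changes it. The comparison of 10 with 1 μg/ml asks how far the transcript response had reached that state, at which times, and for which transcripts it had not.

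Each column combined 2 biological replicates according to the labels, so the table holds no spread between replicates and each dose and time has 1 value per probe set. The unstimulated cells were sampled at 0 min alone, so drift of a transcript over the course cannot be told apart from a response to the antibody. Of 38361 probe sets (groups of array probes for 1 transcript), 26852 with a mean log2 intensity above the 30th percentile were tested. The row identifiers of the table do not pair with its values, so no gene is named and probe sets are described by their values alone. Levels below are intensities on the deposited linear scale, changes are log2 differences from the unstimulated column, and dose differences are log2 values of 10 minus 1 μg/ml, where 1 stands for a factor of 2. The changes at both doses share the unstimulated column, whereas it cancels in the dose difference.

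The columns also differed in a way that went with brightness over all tested probe sets, those that responded included, and its cause was not tested. The 75th percentile of intensity was 12.1, 12.3, 11.6, 11.3 and 11.4 at 15, 30, 45, 60 and 90 min of 10 μg/ml, 11.6, 11.5, 11.6, 11.7 and 11.9 at 1 μg/ml, and 12.4 without antibody. Among all tested probe sets with an unstimulated log2 intensity of 4 to 5, the median dose difference was accordingly 0.09, 0.11, -0.01, -0.11 and -0.13 over the 5 times, against -0.02, -0.02, 0.03, 0.05 and 0.05 for those under 2. A quantile normalisation of the columns, chosen after this shift was seen, brought these medians to within 0.03 of 0 at every time, so its values stand beside the results that it moves.

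Responding probe sets were chosen on the mean of both doses, which favours neither. A probe set responded when limma's moderated F-test of the mean of both courses gave an adjusted p under 0.05 and the largest mean change was at least 2-fold. The test called 5716 probe sets (21.3% of those tested), and 425 (1.58%) also met the fold limit, 198 as rises (0.737%) and 227 as falls (0.845%). Those just inside and just outside the limit had a mean change of 1.00 in size, and 1399 called probe sets lay between 1.5-fold and 2-fold. Rises reached their largest mean change early or late, with 2, 25, 20, 17 and 134 probe sets at 15, 30, 45, 60 and 90 min. Falls were almost all late, with 1, 4, 7, 39 and 176. The median unstimulated intensity was 16.3 for rises and 24.1 for falls, against 4.91 for all tested probe sets.

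The rises were close to saturation at 1 μg/ml. Their median change at 10 μg/ml was 0.15, 0.61, 0.95, 1.11 and 1.32 over the 5 times, and 0.12, 0.51, 0.87, 1.09 and 1.23 at 1 μg/ml. The lower dose thus reached 80.3%, 83.7%, 90.9%, 98.0% and 93.3% of the median change at the higher dose. After quantile normalisation these shares were 96.9%, 93.9%, 94.7%, 93.8% and 87.3%, so whether they grew or shrank over time depended on the scaling of the columns. The share at 15 min is a ratio of small medians. The median dose difference within a probe set was 0.06, 0.07, 0.09, 0.08 and 0.12, beside 0.03, 0.03, 0.01, -0.02 and -0.02 for all tested probe sets. After quantile normalisation it was 0.01, 0.01, 0.09, 0.14 and 0.18, so that the small lead of 10 μg/ml at 15 and 30 min was no longer seen and the lead at 90 min was larger. By comparison, 0.1, 1 and 10 μg/ml gave the rises a median change of 0.67, 1.23 and 1.32 at 90 min, and the lowest dose reached 50.6% of the change at the highest.

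The falls were deeper at 10 μg/ml at the end of the course, and the order of the doses turned round over time. Their median change at 10 μg/ml was -0.18, -0.32, -0.75, -1.07 and -1.24, against -0.26, -0.47, -0.74, -0.91 and -1.04 at 1 μg/ml. At 15 and 30 min the fall was thus deeper at 1 μg/ml, at 45 min the doses gave nearly the same median, and at 60 and 90 min it was deeper at 10 μg/ml, where 1 μg/ml reached 85.5% and 83.8% of it. The median dose difference was 0.07, 0.13, 0.02, -0.15 and -0.20, and 10 μg/ml gave the higher value for 153, 179, 121, 49 and 41 of the 227 falls. These are 67.4%, 78.9%, 53.3%, 21.6% and 18.1%, beside 56.1%, 57.5%, 53.7%, 46.2% and 45.4% of all tested probe sets. The share of all tested thus turned round as well, by less, and at 45 min the falls were near it. This turn ran with the brightness shift described above, which has the same sign at each end of the course in probe sets of the falls' brightness. After quantile normalisation the median was 0.00, 0.04, 0.02, -0.10 and -0.17, so the early part nearly vanished and the late part stayed. The counts of falls higher at 10 μg/ml were then 114, 141, 118, 67 and 53. Less the median of tested probe sets of the same brightness, the median dose difference was -0.01, 0.04, 0.02, -0.07 and -0.11.

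Whether rises or falls were closer to saturation at 90 min depended on the scaling of the columns. The share of the median change reached at 1 μg/ml was 93.3% for rises and 83.8% for falls as deposited, and 87.3% and 86.1% after quantile normalisation. Less the median of equal brightness, the dose difference at 90 min was 0.17 for rises and -0.11 for falls, so that the rises then had the larger one.

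**Figure D1:**
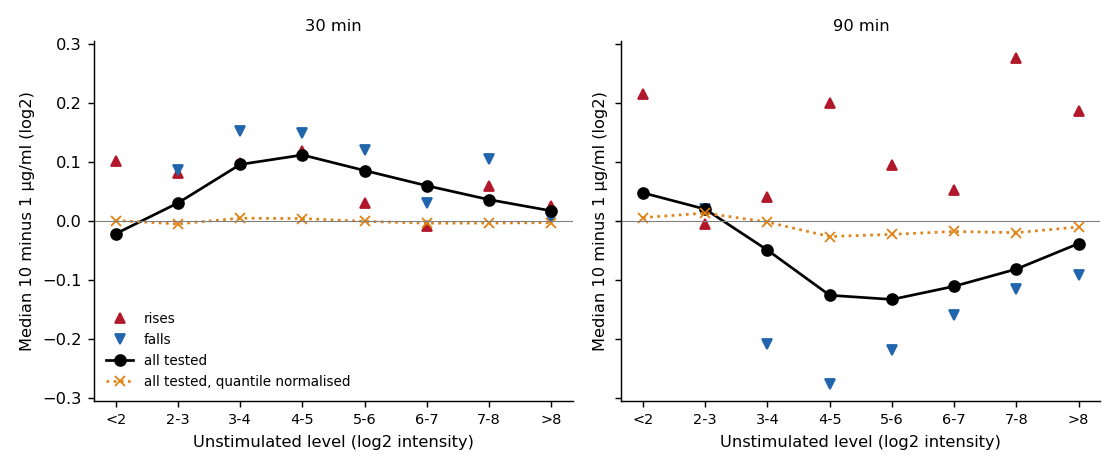
Median 10 minus 1 μg/ml difference (log2, y axis) at 30 and 90 min by the unstimulated log2 intensity of the probe sets (x axis), for the 198 rises, the 227 falls and all 26852 tested probe sets, the last also after quantile normalisation. All tested probe sets of middle brightness lie above 0 at 30 min and below 0 at 90 min, at 0.11 and -0.13 for a log2 intensity of 4 to 5, and most points of the falls lie beyond them on the same side.

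Counts past a 2-fold change were taken over all tested probe sets. At 90 min, 185 probe sets were at least 2-fold above the unstimulated column at 10 μg/ml and 163 at 1 μg/ml, while 309 and 142 were at least 2-fold below it. At 60 min the numbers above were 125 at 10 μg/ml and 121 at 1 μg/ml, and those below 194 and 77. The brightness shift at 60 and 90 min also runs downward at 10 μg/ml, and after quantile normalisation the numbers at 90 min were 221 at 10 μg/ml and 172 at 1 μg/ml above, and 219 and 118 below. At 30 min the order of the falls was the other way, with 7 at 10 μg/ml and 20 at 1 μg/ml as deposited. A direct 2-fold difference between the doses was rare. It was seen upward in 0, 2, 2, 3 and 4 and downward in 0, 0, 0, 0 and 2 probe sets at the 5 times.

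The unstimulated column had the lowest median intensity of all 53 columns, 2.74, so changes were also taken from the 15 min column of the same course. Between 15 and 90 min the rises changed by a median of 1.12 at 10 μg/ml and 1.16 at 1 μg/ml, a ratio of medians of 103%. Within probe sets, however, the median of 10 minus 1 μg/ml for this change was 0.07, with the higher dose ahead. The falls changed by -1.04 at 10 μg/ml and -0.81 at 1 μg/ml over the same interval, 77.2% of the higher dose. After quantile normalisation the shares over this interval were 94.9% for rises and 83.2% for falls.

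The choice of probe sets could shape these medians, so rows were also chosen in columns that the comparison does not use. Rises called in WT + Inh cells (165 probe sets) or in the IKKβSA line (298) had at 90 min in wild type cells a median dose difference of 0.09 and 0.12. Falls chosen in the same way (78 in WT + Inh and 43 in IKKβSA cells) had -0.19 and -0.23. Each kept the sign of the choice on both doses, which gave 0.12 for rises and -0.20 for falls. The lower dose reached 88.1% and 87.0% of the median change of these rises at 90 min, and 89.2% and 83.3% of that of these falls. At 45 min the shares for these rises were 100% and 78.6%, against 90.9% for the choice on both doses. A choice at 10 μg/ml alone gave 0.18 for rises and -0.26 for falls, and a choice at 1 μg/ml alone gave 0.03 and -0.14, which shows how much a choice on a compared dose moves the estimate toward that dose.

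Rises differed by when they peaked. The 47 rises with their largest mean change at 15 to 45 min kept pace at first and then lost ground at the lower dose. Their median change was 0.77, 1.64, 1.59, 1.43 and 1.26 at 10 μg/ml, against 0.81, 1.47, 1.31, 1.24 and 1.00 at 1 μg/ml, and the median dose difference was 0.01, 0.10, 0.20, 0.23 and 0.22. Quantile normalisation gave -0.06, 0.02, 0.20, 0.29 and 0.28. The 134 rises with their largest change at 90 min had a dose difference of 0.06, 0.06, 0.08, 0.04 and 0.06, and 0.01, 0.01, 0.08, 0.09 and 0.13 after quantile normalisation. For these late rises 1 μg/ml reached 96.4% of the median change at 90 min, and for the early ones 79.5%. The difference between the early and the late rises was not tested.

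**Figure D2:**
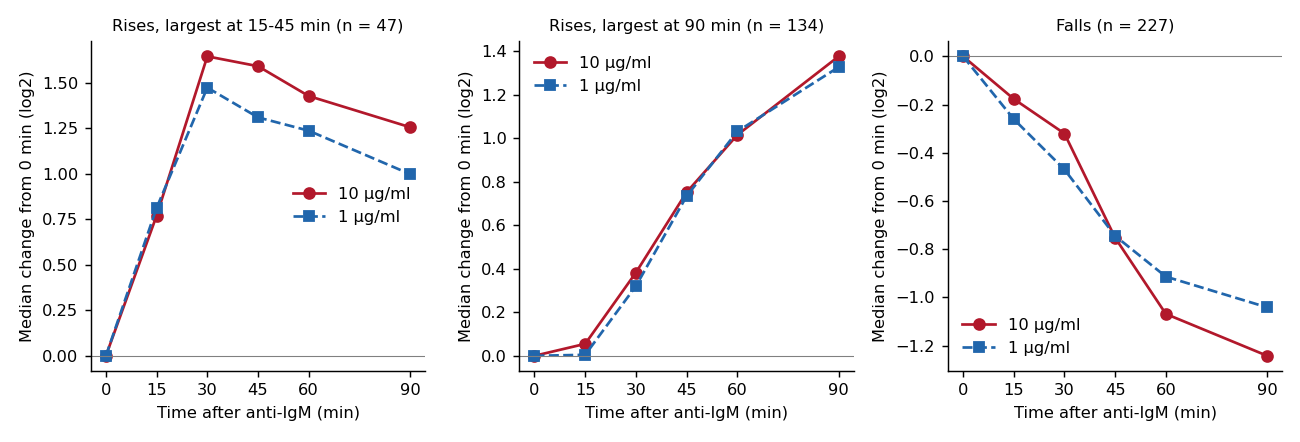
Median log2 change from the unstimulated column (y axis) against time after anti-IgM (x axis, min) for early rises (n = 47), late rises (n = 134) and falls (n = 227) at 10 μg/ml (red circles) and 1 μg/ml (blue squares). The early rises part after 15 min and stand at 1.26 against 1.00 at 90 min, the curves of the late rises lie together, and those of the falls cross near 45 min.

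The early rises were also described by the height of the peak and by how much of it was left at 90 min. The median peak was 1.805 at 10 μg/ml and 1.505 at 1 μg/ml, while the median difference of the peaks within probe sets was 0.14. The median share of the peak still present at 90 min was 72.3% at 10 μg/ml and 64.3% at 1 μg/ml. More of the peak was kept at 10 μg/ml in 34 of the 47. At 90 min, 34 of them were still at least 2-fold up at 10 μg/ml, against 23 at 1 μg/ml. The 12 that had lost at least 50% of their mean peak by 90 min were taken apart. Their median peak was 1.51 at 10 μg/ml and 1.60 at 1 μg/ml, whereas the median change left at 90 min was 0.59 and 0.25, or 41.2% of the peak at 10 μg/ml, against 18.6% at 1 μg/ml. Within these 12 the median difference was 0.03 for the peak and 0.21 at 90 min.

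The time of the largest change was mostly shared by the doses. It was the same for 160 of 198 rises, later at 10 μg/ml for 24 and earlier for 14. Among the falls it was the same for 166 of 227, later at 10 μg/ml for 46 and earlier for 15. Where the doses differed, the higher dose was more often the later one in both directions. These counts were taken on the values as deposited alone. The brightness shift described above runs downward with time at 10 μg/ml, and its part in the order of the falls was not tested.

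**Figure D3:**
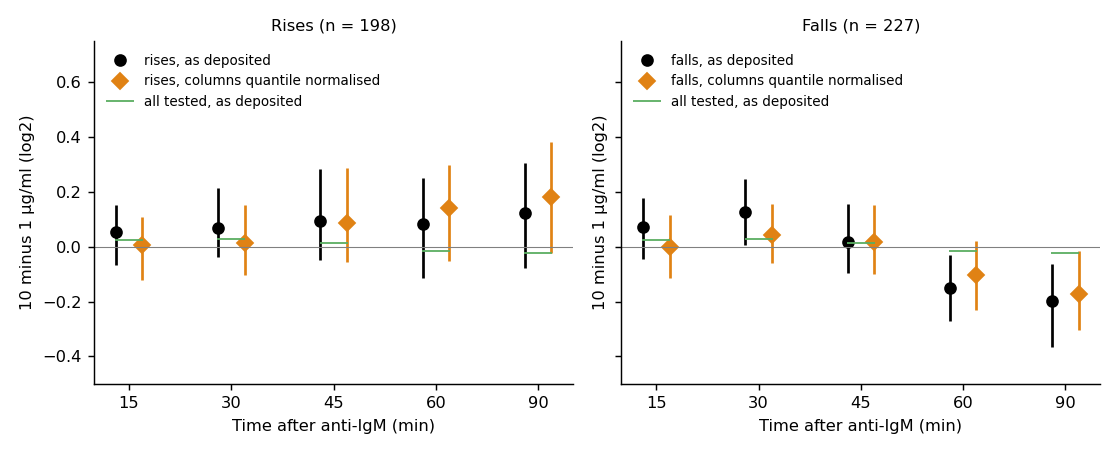
10 minus 1 μg/ml difference (log2, y axis) by time (x axis, min) for the 198 rises and the 227 falls, as the median (symbol) with the quartiles over probe sets (bar), as deposited and after quantile normalisation, with the median of all tested probe sets as a short line. The median of the rises is 0.12 at 90 min as deposited and 0.18 after quantile normalisation, and that of the falls goes from 0.07 at 15 min to -0.20 at 90 min as deposited.

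A test of single probe sets paired the doses by time. In limma the 10 stimulated columns were fitted with time as a factor and dose as a term. The error of a probe set was the variation of its dose difference over the 5 times. It was drawn by limma toward that of tested probe sets of like intensity. The standard errors and intervals below are therefore not the spread over times of 1 probe set, and they can be narrower than it. The median standard error of the mean dose difference was 0.08. At an adjusted p under 0.05, 35 probe sets were higher at 10 μg/ml (0.13% of those tested) and 1 was lower (0.00372%). Among the 198 rises 17 were called higher (8.59%) and none lower, and among the 227 falls 1 was called higher (0.441%) and none lower. The other 17 called higher were not responding probe sets.

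This count rests on the error model. It was 2 without the trend of the error over intensity, 1 when the 0.1 μg/ml columns were added to the fit, and 6 when a difference of at least 1.5-fold was asked for as well. Leaving out the pair of columns at 15, 60 or 90 min gave 56, 23 and 15. After quantile normalisation 26 were called higher, 23 of them among the 35, and 2 lower.

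In the columns that made the call, 31 of the 35 had the higher value at 10 μg/ml at all 5 times, which the test itself favours. The mean dose difference of the 35 lay between 0.13 and 0.75 with a median of 0.39. Columns not used in the choice were read as well, but they belong to the same courses of 1 and 10 μg/ml. Over all tested probe sets, Pearson's r between the dose differences at 60 and 90 min was 0.38. A deviation common to the columns of 1 course would therefore carry over to the time left out, and cannot be told apart from an effect of dose. The 15 probe sets called without the 90 min columns had a median dose difference of 0.53 at 90 min and 14 of them were above 0 there, as were 45.4% of all tested probe sets. All 23 called without the 60 min columns were above 0 at 60 min (46.2% of all), with a median of 0.51. The choice without 45 min gave 22 of 26 above 0 at that time (53.7% of all) with a median of 0.27, that without 30 min gave 34 of 36 (57.5% of all) with 0.21, and that without 15 min gave 38 of 56 (56.1% of all) with 0.07. At the time left out, the median was thus larger at 60 and 90 min than at 15 min, each in its own set of called probe sets. In the columns that made the call, the 17 of the 35 that did not respond had a median dose difference of 0.22 at 15 min and 0.39 at 90 min.

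The 17 called rises had their largest mean change at 30 min (6), 45 min (3), 60 min (1) or 90 min (7), and it lay between 1.00 and 6.22 with a median of 2.28. Their median change at 10 μg/ml was 0.95, 1.87, 2.15, 1.95 and 2.03, and 1.03, 1.85, 1.51, 1.47 and 1.47 at 1 μg/ml. Within probe sets the median dose difference was 0.10, 0.27, 0.53, 0.77 and 0.77. It was larger from 45 min on than at 30 min, where the medians of the doses were nearly equal. These columns made the call, so the sign of the mean over times was fixed by the choice. The 17 called probe sets that did not respond had a median change between 0.08 and 0.14 at 10 μg/ml and between -0.12 and -0.04 at 1 μg/ml. These included 6 very bright ones with unstimulated intensities between 1441 and 1657 and mean dose differences of only 0.13 to 0.19.

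The 5 called probe sets with the largest mean dose difference showed how the difference arose. The first had an intensity of 519, 878, 568, 400 and 297 at 10 μg/ml over the 5 times, 467, 618, 266, 183 and 160 at 1 μg/ml, and 146 without antibody. It rose at both doses, peaked at 30 min, and was almost back at its starting level by 90 min at 1 μg/ml but not at 10 μg/ml. The mean dose difference over 5 pairs of columns was 0.75 ± 0.08 (limma's moderated SE, 95% interval 0.59 to 0.92). This is a factor of 1.69, with an adjusted p of 5.86e-06 in limma.

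The second had 31.1, 101, 106, 93.5 and 76.8 at 10 μg/ml, 28.3, 65.7, 46.6, 49.4 and 42.4 at 1 μg/ml, and 9.59 without antibody. Its peak at 1 μg/ml came at 30 min and was followed by a loss, while at 10 μg/ml the level held to 45 min. The mean dose difference was 0.75 ± 0.09 (SE, limma adjusted p = 6.88e-05).

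The third was dim, with 2.24, 6.28, 11.98, 13.5 and 16.6 at 10 μg/ml, 2.19, 4.16, 7.95, 6.89 and 6.41 at 1 μg/ml, and 1.72 without antibody. It went on rising to 90 min at 10 μg/ml and stopped rising after 45 min at 1 μg/ml. The mean dose difference was 0.71 ± 0.12 (SE, limma adjusted p = 0.00501), and without the 90 min columns the adjusted p was 0.098.

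The fourth was the sharpest pulse. It had 215, 266, 136, 69.6 and 42.2 at 10 μg/ml, 212, 221, 73.7, 33.0 and 18.5 at 1 μg/ml, and 6.53 without antibody. At 15 min the doses were alike, with a dose difference of 0.02, and the difference then was 0.27, 0.89, 1.08 and 1.19, so that the doses differed in the decay and hardly in the onset. At 0.1, 1 and 10 μg/ml the level at 90 min was 5.47, 18.5 and 42.2. The mean dose difference was 0.69 ± 0.10 (SE, limma adjusted p = 0.00133).

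The fifth was also the probe set with the largest rise of all. It had 14.4, 170, 354, 416 and 395 at 10 μg/ml, 11.7, 128, 212, 233 and 206 at 1 μg/ml, and 4.17 without antibody. The rise was sustained at both doses at different plateaus, with a dose difference of 0.30, 0.40, 0.74, 0.83 and 0.94. The mean was 0.64 ± 0.07 (SE, limma adjusted p = 5.86e-06).

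The next largest rises had no called dose difference, and the lower dose was ahead at 30 min and the higher at 90 min. A change of their dose difference over time was not called either (limma, dose by time, adjusted p = 0.267 and 0.181), so the crossing describes single values only. The second largest rise had 4.88, 62.0, 181, 237 and 214 at 10 μg/ml, 4.32, 69.4, 186, 213 and 163 at 1 μg/ml, and 4.61 without antibody. The dose difference was -0.16 at 30 min and 0.39 at 90 min, and its mean was 0.10 with a 95% interval of -0.04 to 0.24 (limma adjusted p = 0.998). The third largest rise had 8.42, 63.8, 229, 278 and 242 at 10 μg/ml, 8.48, 80.5, 240, 272 and 202 at 1 μg/ml, and 6.58 without antibody. Its dose difference was -0.34 at 30 min and 0.26 at 90 min, with a mean of -0.02 and a 95% interval of -0.16 to 0.11 (limma adjusted p = 0.998). The 3 strongest rises thus comprised 1 with a called dose difference and 2 for which the interval of the mean over times held 0 within 1.5-fold.

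The probe set called lower at 10 μg/ml was a slow rise of under 2-fold that stopped early at the higher dose. It had 269, 330, 355, 353 and 348 at 10 μg/ml, 257, 384, 434, 438 and 529 at 1 μg/ml, and 266 without antibody. At 0.1, 1 and 10 μg/ml its level at 90 min was 696, 529 and 348, an order opposite to that of the probe sets above. The mean dose difference was -0.27 ± 0.05 (SE, limma adjusted p = 0.0293). The call was lost with columns centred on their medians (adjusted p = 0.0554) and without the 45, 60 or 90 min columns (adjusted p = 0.108, 0.0877 and 0.469). No probe set was called lower without the error trend or with the 0.1 μg/ml columns added to the fit, so the call was lost there as well.

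**Figure D4:**
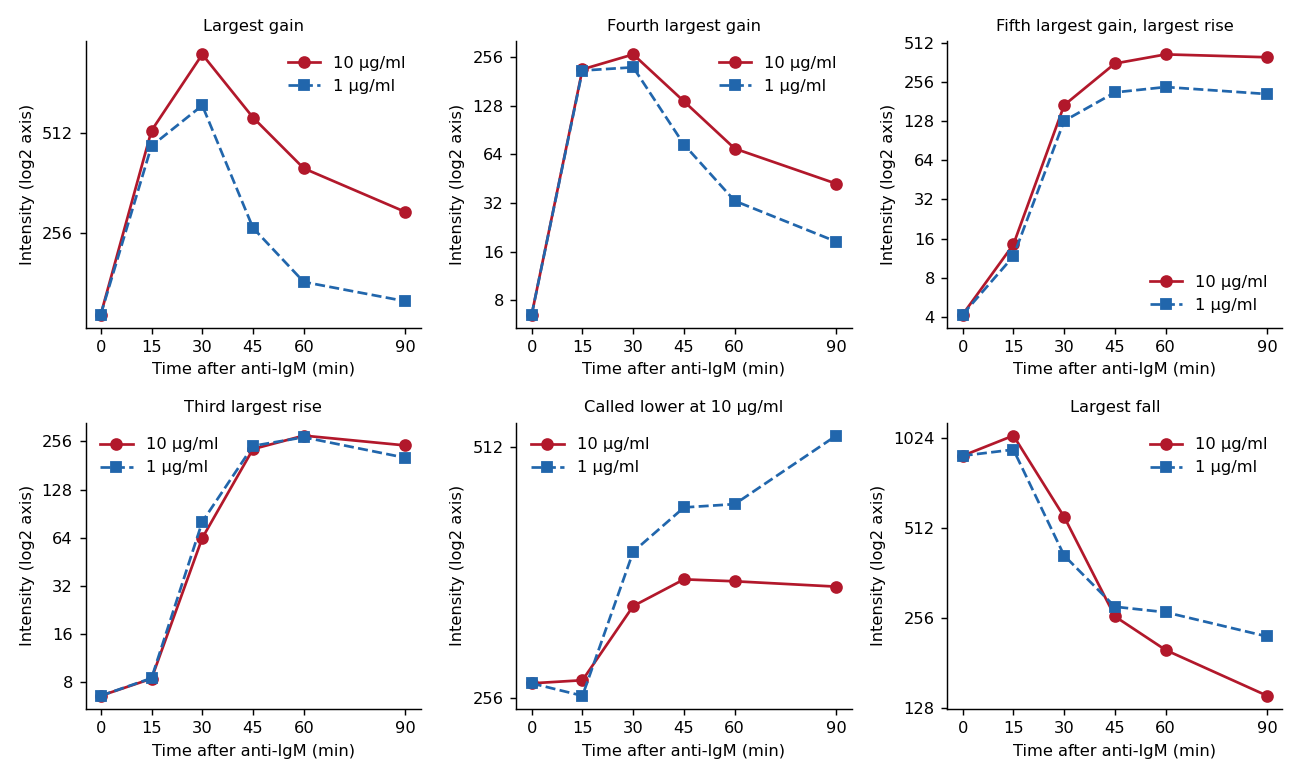
Intensity (log2 y axis) against time after anti-IgM (x axis, min) at 10 μg/ml (red circles) and 1 μg/ml (blue squares) for 6 single probe sets, with 1 column per point and the unstimulated column at 0 min. The fourth largest gain starts alike at both doses and ends at 42.2 and 18.5, the third largest rise has close values at both doses with the lower dose ahead at 30 min and the higher at 90 min, and the largest fall crosses between 30 and 45 min.

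Since a p that misses the threshold does not show that the doses acted alike, each responding probe set was also described by the 95% interval of its mean dose difference. The median half-width of the interval was 0.16 for rises and 0.18 for falls, and the widest was 0.28. Every interval that held 0 therefore lay within 1.5-fold (0.58 on the log2 scale) on both sides. The 1.5-fold limit thus set no probe set apart, and the class within 1.5-fold is simply that of intervals that held 0. The class is no separate evidence that the doses acted alike. It bounds the mean over times only under limma's error, which was drawn toward that of tested probe sets of like intensity. Of the 198 rises, 70 (35.4%) had an interval above 0, a gain at 10 μg/ml, while 3.24% of all tested probe sets had one. For 114 (57.6%) the interval held 0 within 1.5-fold, as for 95.2% of all tested, and for 14 (7.07%) it lay below 0, against 1.52% of all tested.

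Of the 227 falls, 6 (2.64%) had an interval below 0, a deeper fall at 10 μg/ml, and 9 (3.96%) one above 0, while 212 (93.4%) held 0 within 1.5-fold. The share within 1.5-fold was near that of all tested probe sets, and the interval describes the mean over times, in which dose differences of opposite sign cancel. After quantile normalisation the same rises split into 72, 110 and 16, and the same falls into 15, 201 and 11. Gains were found in 25 of the 47 early rises (53.2%), 6 of the 17 with their largest change at 60 min (35.3%) and 39 of the 134 late ones (29.1%).

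**Figure D5:**
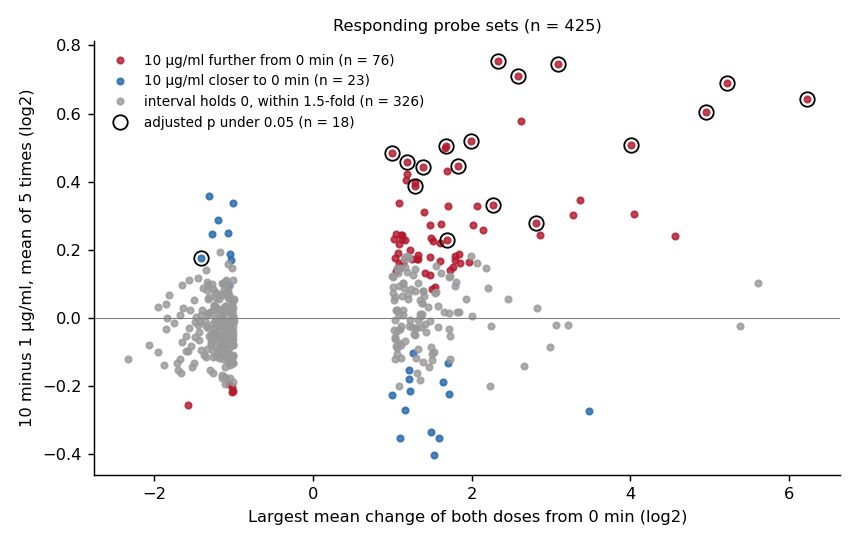
Mean 10 minus 1 μg/ml difference over 5 times (log2, y axis) against the largest mean change of both doses from the unstimulated column (log2, x axis) for the 425 responding probe sets, coloured by whether 10 μg/ml was further from 0 min (n = 76), closer to it (n = 23) or the interval held 0 (n = 326), with rings for an adjusted p under 0.05 (n = 18). Dose differences of rises reach 0.75 and those of falls are smaller, and the strongest rises, at the right, lie both high and at 0.

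The 70 rises with a gain and the 114 within 1.5-fold also differed in readouts that the comparison did not use. At 0.1 μg/ml anti-IgM the median change was 0.25, 0.69, 0.73, 0.52 and 0.45 over the 5 times for the rises with a gain, a pulse, and 0.01, 0.38, 0.67, 0.67 and 0.72 for those within 1.5-fold, a rise that was held. At 90 min of 10 μg/ml the rises with a gain changed by 1.248 when ERK signalling was inhibited (WT + Inh) and by 1.87 in the IKKβSA line, against 0.83 and 1.23 for those within 1.5-fold. With 6 μg/ml CD40L they changed by 0.22 at 90 min, against 0.39. The 14 rises that were higher at 1 μg/ml had the highest values at 90 min of 0.1 μg/ml anti-IgM and of CD40L, 0.99 and 0.80. These are descriptions of medians, since the classes were made from the dose difference.

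The classes were made from these same wild type columns, so the sign of their mean dose difference was fixed by the choice. The values below only describe their time courses. The rises with a gain had a median change of 1.58 at 10 μg/ml and 1.17 at 1 μg/ml at 90 min, and a dose difference of 0.09, 0.18, 0.31, 0.27 and 0.39. The rises within 1.5-fold stood at 1.23 at both doses at 90 min. The 14 in the opposite class were alike at 15 min, with a dose difference of -0.03, and had -0.24, -0.39 and -0.32 at 45, 60 and 90 min.

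A difference that grows over time is penalised by the paired test, so the whole courses were also compared. The moderated F-test of the difference between the spline courses called 159 probe sets (0.592%), of which 90 had their largest dose difference upward and 69 downward. That largest difference lay at 15, 30, 45, 60 and 90 min for 30, 20, 4, 33 and 72 of them and was at least 2-fold for 6. The called ones comprised 23 of the 198 rises (11.6%), 21 of them upward, and 12 of the 227 falls (5.29%), 9 of them downward. Of the 35 probe sets that the paired test called higher, 21 were called here too. The numbers are not firm. Leaving out the columns of 15, 30, 45, 60 or 90 min gave 388, 52, 19, 28 and 35 calls, and quantile normalisation gave 92.

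The slope of the dose difference over time was also fitted. Taken per 30 min in the same 10 columns, it had a median of 0.03 for rises and -0.13 for falls, beside -0.02 for all tested probe sets. It was below 0 for 87.7% of the falls and 44.4% of the rises, against 57.7% of all. At an adjusted p under 0.05 in limma, it was upward for 31 probe sets (0.115%) and downward for 55 (0.205%), and these comprised 13 rises upward and 2 downward, and 1 fall upward and 5 downward. At an unadjusted p under 0.05 it was downward for 91 falls (40.1%), against 12.2% of all tested, and upward for 5 (2.2%), against 5.14%. After quantile normalisation 73 probe sets were called upward and 14 downward, and the brightness shift, which also runs downward with time, moves with this result.

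Among the single probe sets, the slope per 30 min was 0.50 ± 0.10 (SE, limma adjusted p = 0.0276) for the third largest gain, 0.49 ± 0.07 (adjusted p = 0.000831) for the fourth and 0.27 ± 0.05 (adjusted p = 0.0176) for the fifth. The F-test of whole courses called the third (adjusted p = 0.000135) but not the fourth or the fifth (adjusted p = 0.164 and 0.429). The largest fall had 1042, 558, 259, 200 and 141 at 10 μg/ml, 936, 414, 279, 268 and 222 at 1 μg/ml, and 892 without antibody. It was higher at 10 μg/ml up to 30 min and lower from 45 min on, with a slope of -0.41 ± 0.05 (SE, limma adjusted p = 0.000831) and a mean dose difference of -0.12 (95% interval -0.29 to 0.05). The F-test of whole courses did not call this fall (adjusted p = 0.119).

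The next largest falls crossed in the same way. The second largest fall had 21.4, 19.1, 12.2, 8.23 and 5.24 at 10 μg/ml, 19.0, 17.4, 12.02, 9.48 and 7.55 at 1 μg/ml, and 26.4 without antibody. The third had 44.4, 40.0, 29.2, 18.6 and 10.6 at 10 μg/ml, 39.3, 36.8, 28.7, 24.2 and 14.5 at 1 μg/ml, and 48.2 without antibody. Both had a value at 10 μg/ml above that at 1 μg/ml up to 45 min and below it afterwards, but their slopes of -0.30 and -0.28 did not pass the test (limma adjusted p = 0.113 and 0.0902). The F-test of whole courses called the third (adjusted p = 0.0184) and not the second (adjusted p = 0.190).

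Dose differences at separate times share no columns, and their likeness describes how far the same probe sets differed each time. A deviation common to the columns of 1 course would also make them alike, and this was not tested. Across the 198 rises, which are not independent of each other, Pearson's r between the dose differences was 0.81 for 60 and 90 min, 0.67 for 45 and 90 min and -0.04 for 15 and 90 min. Across the 227 falls it was 0.42 for 60 and 90 min and -0.11 for 15 and 90 min, and across all tested probe sets 0.38 and -0.12. Rises with a larger dose difference at 45 min thus tended to have a larger one at 90 min, and those at 15 min showed no such relation.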

How the data were processed

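The authors normalised Affymetrix GeneChip Chicken Genome arrays with RMA, as the submitters' processing notes state without a version, and deposited intensity values on a linear scale, with 2 biological replicates combined in each of 53 columns. The sources used here do not state how the replicates were combined. Precision is limited by the 1 column per dose and time. The column medians spanned 2.74 to 2.95.

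Intensities were taken to log2 without a pseudocount, and probe sets at or under a mean log2 of 1.05 (the 30th percentile), 11509 in number, were not tested. All fits were made with limma 3.58.1 in R 4.3.3, let the error follow intensity, and adjusted p by Benjamini-Hochberg over 26852 probe sets. The paired fit had time as a factor and 4 residual degrees of freedom, and a median of 27.5 in total after limma's moderation. The spline fit used all 53 columns (knots at 25 and 50 min, boundaries at 0 and 90 min, 33 parameters, 20 residual degrees of freedom). The tests were run on simulated data whose errors were independent and drawn from limma's own error estimates, without the brightness shift. Such data cannot check that error model.

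Probe sets given singly were the 5 called with the largest dose difference in each direction (1 was called lower) and the 3 responding with the largest mean rise and fall. Of the probe sets that a supplementary dataset of the study lists as changed, 505 were tested under their identifiers, and 1.78% responded against 1.58% of all tested, so identifiers were not used. Members, lists and tests were chosen with earlier results of these data known. Alternatives were other filters, centring, a pseudocount of 1, other spline degrees of freedom, fewer or more columns, other choices of responding probe sets, each time left out in turn and, chosen after seeing the data, quantile normalisation and a subtraction of the median of equal brightness.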

Additional observations from a re-analysis of the deposited data

Results flagged for a closer look

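The dose difference changed over time by a test of the change itself (limma, dose by time, adjusted p under 0.05) in 31 probe sets in the upward direction and 55 in the downward direction. Of the probe sets described singly, the slope of the dose difference per 30 min passed this test for the third largest gain at 0.50, the fourth at 0.49, the fifth, which is also the largest rise, at 0.27, the probe set called lower at 10 μg/ml at -0.24 and the largest fall at -0.41. The F-test of whole courses did not call the fourth and the fifth gain or the largest fall. All groups hold 1 column per dose and time, so no column could be set against others of its own group.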

How the results depend on the processing

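The median dose differences of rises and falls at the last time kept their sign under every alternative that gave a value. So did the mean dose differences of the called single probe sets and the mean changes of the largest rises and falls. The other results are counts, which have no sign to reverse. At earlier times some medians did change sign. The median dose difference of the falls at 15 min, 0.07, was -0.01 less the median of equal brightness. That of the early rises turned to -0.06 at 15 min after quantile normalisation (0.01 as deposited). Less equal brightness, it turned to -0.0011 at 30 min (0.10 as deposited). The excess of downward over upward slopes, 55 against 31, became 14 against 73 after quantile normalisation, so the order of these counts turned round. The 35 probe sets called higher at 10 μg/ml became 2 without the error trend, 1 with the 0.1 μg/ml columns added, 6 with a difference of at least 1.5-fold asked for, and 15 to 56 with each time left out. The 1 called lower became 3 without a filter, 2 after quantile normalisation, 0 with columns centred, without the error trend, with the 0.1 μg/ml columns and with 1.5-fold asked for, and 0 to 7 with each time left out. The 159 course differences became 92 after quantile normalisation, 34 and 523 with 2 and 4 spline degrees of freedom, 78 in a fit of the 11 columns alone, and 19 to 388 with each time left out. The upward slopes (31) became 73 after quantile normalisation and 0 to 68 with each time left out, and the downward slopes (55) became 28 without a filter, 368 with columns centred, 14 after quantile normalisation and 1 to 197 with each time left out. The count of 0 upward came without the 15 min columns.

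The 227 falls numbered 168 after quantile normalisation, 159 on log2(value + 1) and 311 with columns centred. With each time left out they numbered 117 to 227, the lowest without the 90 min columns. The falls within 1.5-fold, 212, numbered 151, 148 and 293 under the first 3 of these alternatives. The median dose difference of the rises at 90 min, 0.12, became 0.15 on log2(value + 1), 0.18 after quantile normalisation, 0.17 less the median of equal brightness, 0.18 when chosen at 10 μg/ml, 0.0307 when chosen at 1 μg/ml, 0.0901 when chosen in WT + Inh cells and 0.0682 as a change from the 15 min column, and it has no value without the 90 min columns. That of the falls, -0.20, became -0.11 less the median of equal brightness, -0.14 when chosen at 1 μg/ml, -0.25 with columns centred and -0.26 both when chosen at 10 μg/ml and as a change from the 15 min column. Falls with a deeper mean at 10 μg/ml (6) numbered 10 with columns centred, 3 on log2(value + 1), 11 after quantile normalisation with rows chosen anew, and 0 to 19 with each time left out. With each time left out, rises higher at 1 μg/ml (14) numbered 7 to 21, falls within 1.5-fold (212) 115 to 211, and falls less deep at 10 μg/ml (9) 2 to 11. Of the single probe sets, the third largest gain lost its call under 1 alternative and the one called lower under 4, and the cause of none of these changes was tested. No paired analysis was possible because the columns carry no replicate numbers, and the pairs used are those of dose by time.

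Replicates were combined before deposit, so the error of the paired test comes from the spread of the dose difference over times. That of the spline test comes from the deviation from smooth curves, and limma moderated both over all tested probe sets. Neither holds the spread between cultures. The difference of 1 pair of columns had a median standard error of 0.16, so dose differences of the size of the medians given here cannot be read from a probe set at 1 time.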

Other observations

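The 6 brightest probe sets called higher at 10 μg/ml, with unstimulated intensities over 1400, were not among the responding probe sets, which had to change at least 2-fold. Their median change was -0.12, -0.16, -0.10, 0.12 and 0.14 over the 5 times at 10 μg/ml, against -0.35, -0.32, -0.17, -0.04 and -0.08 at 1 μg/ml. The median dose difference was 0.23, 0.17, 0.07, 0.14 and 0.22, no smaller at 15 min, before most of the rises had begun, than later. These columns made the call, so the sign of the mean over times was fixed by the choice. Among the 35, 5 were below the unstimulated level at 90 min at both doses. Their mean dose difference over times was above 0 by the choice, and whether the higher dose left each of them closer to that level at 90 min was not counted.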
